A study of Mus musculus with 6 samples.

Results

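Semaphorins, ephrins, Slits and netrins are ligands of 4 families of guidance receptors, first described on growing axons and also used by growing blood vessels. Genes of these families were picked by symbol (semaphorin classes 3 to 7, plexins A to D, EphA and EphB receptors, ephrin-A and ephrin-B ligands, Slit1 to Slit3, Robo1 to Robo4, Unc5a to Unc5d, and netrins). Of 22958 gene entries, 68 matched, and 51 of the 68 had 10 or more reads in at least 3 of the 6 libraries. Polyadenylated RNA came from CD31-sorted (PECAM1+) endothelium of mouse embryo brains at E11.5, and every mother had been given tamoxifen at E9.5. The 3 Axin1 libraries overexpressed Axin1 and carried the modification written as Cdhrs5CreERT2:R26Axin1IL+/-. The 3 control libraries had wildtype Axin1 expression and carried Cdhrs5CreERT2:R26Axin1IL-/-. Both groups therefore shared the tamoxifen-inducible Cre, the tamoxifen and the strain (C57BL/6 x 129/Sv). The labels name the driver of the Cre only by that string, do not say how many embryos went into a library, and number the libraries as biological replicates without saying whether they came from separate litters. The p-values below measure the spread between these libraries. Axin1 scaffolds the beta-catenin destruction complex of Wnt signalling, so the comparison asks how endothelial transcripts differ when it is overexpressed.

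As background, semaphorins bind plexins, and most secreted class 3 semaphorins need a neuropilin as co-receptor. Ephrins and Eph receptors both sit in the membrane and signal between touching cells. Ephrin-B2 and EphB4 mark arterial and venous endothelium. Slits bind Robo1 and Robo2, while Robo4 is found mainly in endothelium and binds the netrin receptor Unc5b. Sema3E acts on vessels through PlexinD1 without needing a neuropilin.

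Library totals ranged from 11633853 to 14234409 reads in the Axin1 libraries and from 10772492 to 13035808 reads in the controls. Levels for comparisons between groups are CPM (reads scaled to a common library size) after TMM normalisation, and levels compared between genes are the deposited RPKM, which are per kilobase. Axin1 itself stood at 79.8, 62.2 and 66.2 CPM in Axin1 libraries 1, 2 and 3, against 25.0, 17.6 and 20.8 CPM in controls 1, 2 and 3. Pecam1 lay between 1182 and 1331 CPM in the Axin1 libraries and between 1199 and 1455 CPM in the controls. Some other pan-endothelial markers, picked after their values were seen, were less even. Cdh5 had 981, 945 and 924 CPM in Axin1 libraries 1, 2 and 3, against 432, 502 and 846 CPM in controls 1, 2 and 3. Cldn5 had 186, 275 and 242 CPM in the Axin1 libraries, against 44.0, 48.2 and 196 CPM in the controls. Esam was lower, at 1083, 1026 and 925 CPM against 1321, 1206 and 1227 CPM. Of 15 such markers, 8 had log2 fold changes above 0 and 7 below. Axin1 libraries 1 and 3 and controls 1 and 3 stood apart in markers of other cells. The sum of 13 macrophage and microglia markers was 289.5, 1442 and 3003 CPM in Axin1 libraries 1, 2 and 3, against 575, 1005 and 518 CPM in the controls, and none of the 13 was at 0 in any library. Erythroid markers summed to 261, 1299 and 2697 CPM in Axin1 libraries 1, 2 and 3, against 736, 1877 and 3065 CPM in controls 1, 2 and 3. Megakaryocyte and platelet markers summed to 808, 2185 and 2859 CPM in the Axin1 libraries, against 1737, 1661 and 1825 CPM in the controls, so Axin1 library 1 was the lowest for all 3 sums. Of 16 neural markers 15 were found, with sums of 370.1 to 406 CPM in the Axin1 libraries and 313 to 523 CPM in the controls, highest in control 3. Sox2, Sox1, Nefl and Neurog2 were at 0 in at least 1 library, while Tubb3 stood at 106 CPM in control 3 and between 14.4 and 55.0 CPM elsewhere. Control 1 was the lowest library for 10 of the 15 neural markers and for 10 of 14 pericyte and mesenchyme markers. These 14 summed to 135.6, 211.8 and 167.1 CPM in Axin1 libraries 1, 2 and 3, against 66.2, 107.6 and 180.0 CPM in the controls. In such bulk samples fewer cells of a type and less RNA per cell cannot be told apart.

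The guidance genes of this endothelium covered a wide range of levels, and in most families 1 member carried most of the RNA. Mean RPKM over the 6 libraries was 10 or more for 11 of the 68 genes and 1 or more for 28. The 5 genes chosen as vessel markers were all among the 7 most abundant, namely Robo4, Plxnd1, Efnb2, Ephb4 and Unc5b. The genes with a higher mean than at least 1 of them were Efna1, which encodes the ephrin-A1 ligand of EphA2, and Sema6d, which encodes a transmembrane ligand of class A plexins.

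Efna1 was the most abundant guidance gene, at 337, 320 and 265 RPKM in Axin1 libraries 1, 2 and 3, against 340, 339 and 284 RPKM in controls 1, 2 and 3. Robo4 followed at 157, 156 and 130 RPKM in the Axin1 libraries, against 122, 112 and 126 RPKM in the controls. Plxnd1, the Sema3E receptor gene, had 122, 112 and 90.8 RPKM in the Axin1 libraries and 116, 101 and 102 RPKM in the controls. Efna1 exceeded Robo4, and Robo4 exceeded Plxnd1, in all 6 libraries. Below these came Efnb2 (mean 36.6 RPKM), Sema6d (32.2), Ephb4 (25.0), Unc5b (23.9), Sema6a (22.7) and Epha2 (19.8). The ranges of neighbours within this second group overlapped over the libraries. Sema6d still exceeded Ephb4 in all 6 libraries, while the other neighbours changed order between libraries.

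**Figure D1:**
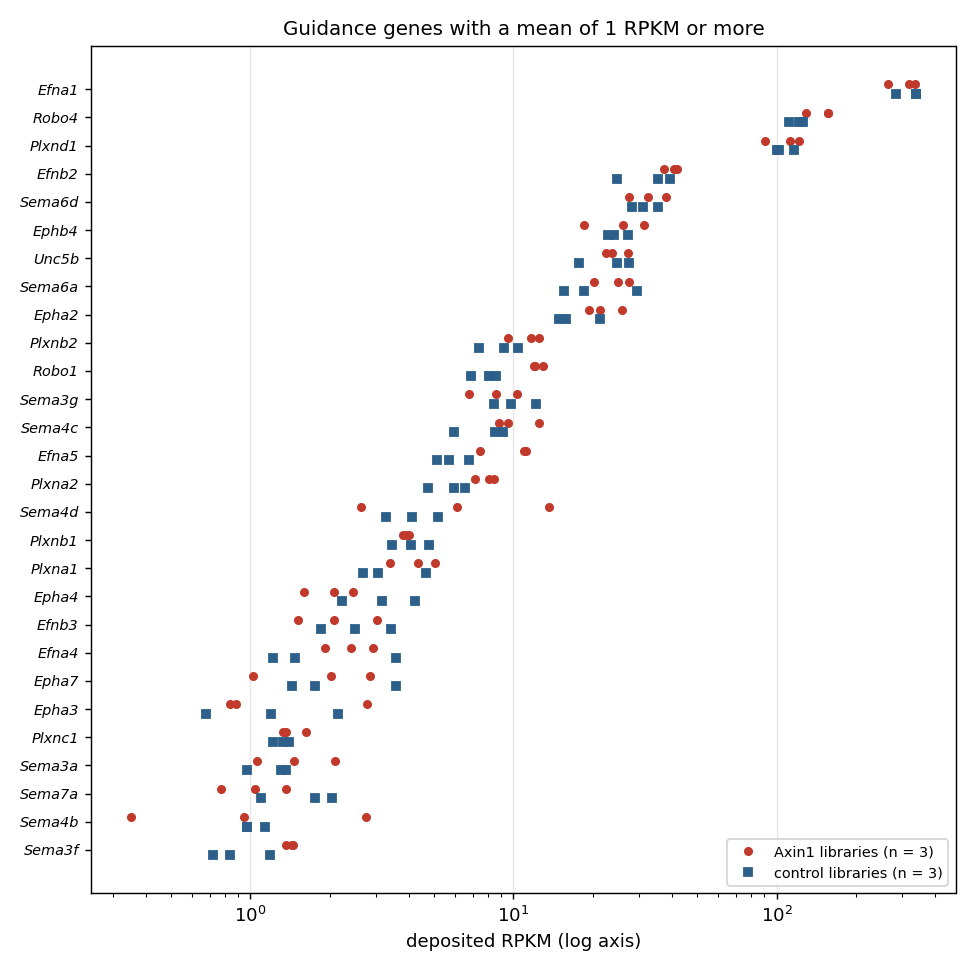
Deposited RPKM (log axis) of the 28 guidance genes with a mean of 1 RPKM or more, ordered by mean, with 1 circle for each of 3 Axin1 libraries and 1 square for each of 3 control libraries. Efna1, Robo4 and Plxnd1 stand above all others, and the 2 groups overlap for most genes.

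Within families, Unc5b made up 98.6% ± 0.558 of the summed RPKM of the 4 Unc5 genes in the Axin1 libraries and 98.5% ± 0.754 in the controls (SD, n = 3 each). Ephb4 held 96.1% ± 1.75 of the RPKM of 5 EphB receptors in the Axin1 libraries and 95.4% ± 5.11 in the controls. Efna1 held 96.0% ± 0.405 of the ephrin-A RPKM in the Axin1 libraries and 97.3% ± 1.00 in the controls, and Robo4 held 92.0% ± 0.728 of the Robo RPKM in the Axin1 libraries and 93.7% ± 0.938 in the controls. Efnb2 held 92.6% ± 2.22 of the ephrin-B RPKM in the Axin1 libraries and 90.0% ± 5.94 in the controls. Plxnd1 held 77.9% ± 2.62 of the plexin RPKM in the Axin1 libraries and 80.9% ± 3.43 in the controls. Among the 7 class 3 semaphorins, Sema3g held 69.5% ± 7.76 in the Axin1 libraries and 80.0% ± 1.92 in the controls. The semaphorins of classes 4 to 7 were shared out more evenly, and their leading gene Sema6d held 41.4% ± 8.63 in the Axin1 libraries and 45.4% ± 5.95 in the controls.

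Several ligands of the abundant receptors had very few reads. Sema3e, the ligand gene for PlexinD1, had 2 reads in each Axin1 library, against 0, 6 and 0 reads in controls 1, 2 and 3. Ntn1, whose product binds Unc5b, had 6, 5 and 20 reads in Axin1 libraries 1, 2 and 3, against 1, 1 and 16 in controls 1, 2 and 3. Ntn4, the gene of a basement membrane netrin, had 0 reads in every Axin1 library and 0, 1 and 1 in the controls. Ntn3, the netrin gene that met the read minimum, had 10, 8 and 10 reads in the Axin1 libraries, against 8, 6 and 14 reads in the controls, and no netrin gene entered the test. Epha6 and Epha8 had 0 reads in all 6 libraries, and a count of 0 allows up to 3 reads, or 0.211 to 0.258 CPM per Axin1 library and 0.230 to 0.278 CPM per control. That limit covers counting error only.

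The read minimum left out 17 of the 68 genes, and 12 of the 17 had 10 or more reads in 0 libraries. Just inside it, with 10 or more reads in exactly 3 libraries, were Robo2, Robo3, Sema3c, Ntn3 and Ephb6. Just outside, with 2 libraries, were Ntn1 and Sema5b. Sema5b, a transmembrane semaphorin gene, had 3, 10 and 5 reads in the Axin1 libraries, against 0, 7 and 32 in the controls. Robo3 alone was kept through the Axin1 libraries only, so a difference in its favour was built into its selection. Sema3c, Ntn3 and Ephb6 were kept but fell under the low-count filter of the test, which left 48 tested genes.

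Of the 48 tested genes 0 passed at 0.05 in the quasi-likelihood fit of edgeR, Benjamini-Hochberg adjusted across the 12661 genes fitted, of which 0.845% passed (0.355% higher and 0.49% lower in the Axin1 libraries). At an unadjusted p under 0.05 there were 8 of 48 (16.7%), against 17.2% of all tested genes, so the share lay near the background. Of the 8, 6 were higher and 2 lower in the Axin1 libraries. DESeq2 called 2 of the 48, Robo1 and Efna5, both higher, where it called 6.58% of the genes to which it gave an adjusted p. The 48 include genes to which it gave none, Plxnb3 and Robo3 among them, so the bases differ. The groups did not overlap for 9 of the 48 (18.8%), 7 higher and 2 lower, against 23.8% of all tested genes (11.3% higher and 12.4% lower). Without Robo3, whose selection favoured the Axin1 libraries, 7 of 47 (14.9%) had an unadjusted p under 0.05, 5 higher and 2 lower, and 8 of 47 (17.02%) did not overlap, 6 higher and 2 lower. The log2 fold change was above 0 for 31 of the 48, against 6648 of all 12661 tested genes (52.5%). The median log2 fold change was 0.16 for the 48 and 0.02 for all tested genes. Robo3 is included in the 31 and in the median of 0.16.

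**Figure D2:**
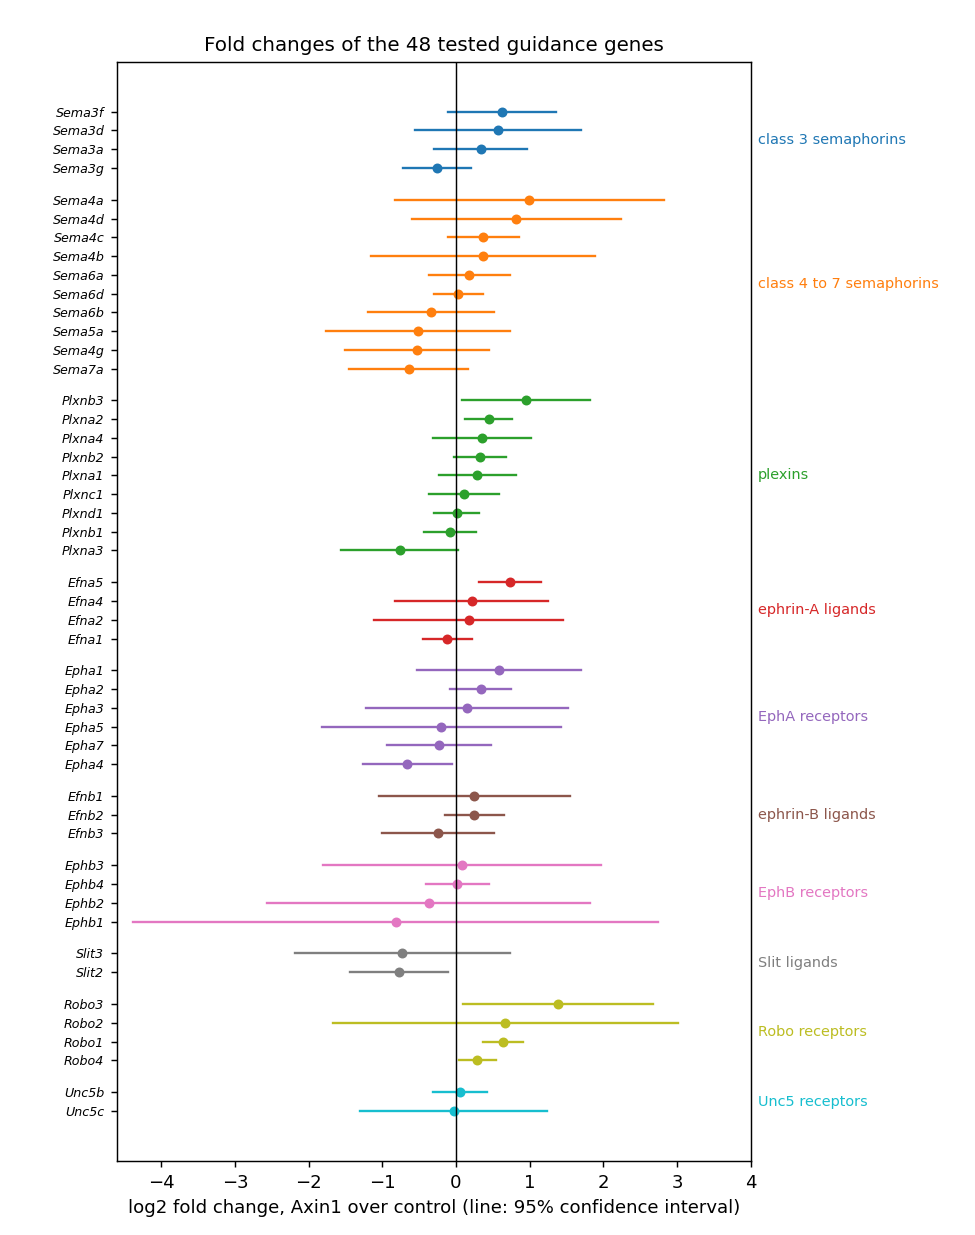
Log2 fold change (Axin1 over control, edgeR) of the 48 tested guidance genes by family, with a point for the estimate and a line for its 95% confidence interval. The intervals of Robo1, Robo4, Efna5 and Plxna2 lie above 0 and are short. That of Plxnb3 lies above 0 and is long. Robo3 was kept through the Axin1 libraries only, so its interval is not read. The intervals of Slit2 and Epha4 lie below 0, and none of the 48 passed the adjusted test.

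Among the Robo receptors and their Slit ligands, Robo1, a Slit receptor gene (NM_019413), had the smallest p of the 48. It stood at 92.9, 97.3 and 91.9 CPM in Axin1 libraries 1, 2 and 3, against 54.1, 65.8 and 60.9 CPM in controls 1, 2 and 3. All 3 Axin1 libraries lay above all 3 controls. The log2 fold change was 0.64 (SE 0.12, 95% confidence interval 0.37 to 0.91), a 1.56-fold difference that missed the threshold (edgeR adjusted p 0.0523). It passed at 0.0329 in edgeR once control 3 was left out, at 0.0412 with no low-count filter and at 0.00125 in DESeq2 (adjusted p values). Over the 14 alternatives tried the adjusted p ranged from 0.00125 to 0.198, and the log2 fold change from 0.57 to 0.71.

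Robo4 (NM_028783) had 588, 570 and 485 CPM in the Axin1 libraries, against 465, 417 and 464 CPM in controls 1, 2 and 3, without overlap. Its log2 fold change was 0.29 (SE 0.11, 95% confidence interval 0.03 to 0.54; edgeR adjusted p 0.237). Robo3, a divergent Robo gene, averaged 1.41 ± 0.253 CPM in the Axin1 libraries and 0.537 ± 0.246 CPM in the controls (SD, n = 3 each), on 13 to 22 reads per Axin1 library and 3 to 8 per control. Since it had been kept through the Axin1 libraries only, no test is read for it. Robo2, the second Slit receptor gene of this family, did not separate the groups, at 0.16, 1.79 and 2.51 CPM in the Axin1 libraries, against 0.18, 0.61 and 2.02 CPM in the controls.

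Slit2 (NM_178804), a secreted ligand of Robo1, had 5.83, 5.44 and 3.63 CPM in Axin1 libraries 1, 2 and 3, against 6.91, 10.3 and 8.37 CPM in controls 1, 2 and 3. Here every Axin1 library lay below every control. The log2 fold change was -0.78 (SE 0.29, 95% confidence interval -1.44 to -0.11; edgeR adjusted p 0.226). Slit3 had a log2 fold change of -0.73 with a wide 95% confidence interval of -2.19 to 0.74, and Slit1 was not tested, at 0 to 5 reads per library. As a description of receptor against ligand, the ratio of Robo1 to Slit2 in RPKM was 16.9, 18.9 and 26.7 in the Axin1 libraries and 8.30, 6.75 and 7.73 in the controls. The ratio of Robo4 to Robo1 in RPKM was 13.0, 12.02 and 10.8 in the Axin1 libraries and 17.7, 13.0 and 15.6 in the controls. Both pairs were chosen after their values were seen, and neither ratio was tested.

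**Figure D3:**
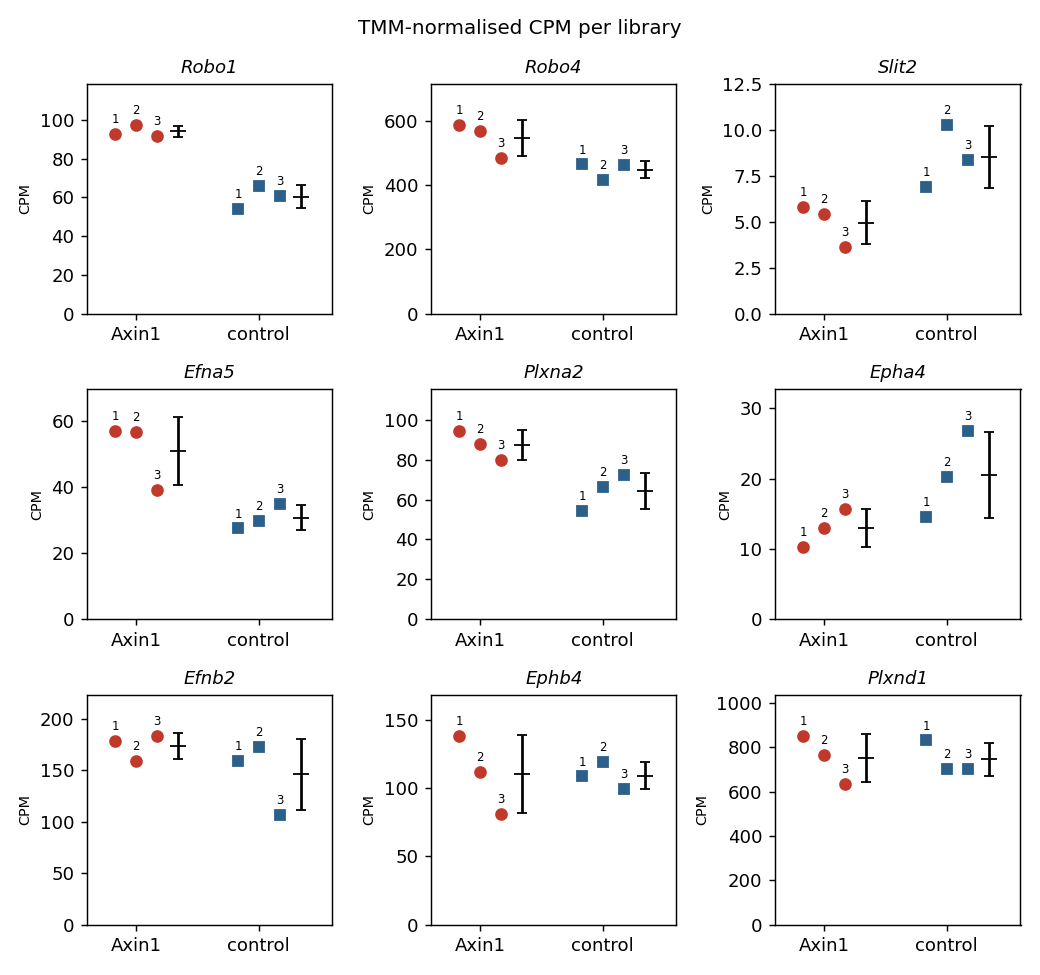
TMM-normalised CPM of 9 guidance genes in each library, Axin1 libraries as circles and controls as squares with their library number, and the mean ± SD (n = 3) as a bar to the right. Robo1, Robo4, Efna5 and Plxna2 are higher in every Axin1 library than in any control and Slit2 is lower, while Efnb2, Ephb4, Plxnd1 and Epha4 overlap.

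Upstream sequences are shown for both Robo genes because they were the guidance genes with a mean of 10 RPKM or more whose groups did not overlap, and for Epha2 as an abundant gene with a TCF/LEF-type match. TCF/LEF factors are the DNA-binding partners of beta-catenin. Each run holds the 250 bases before the RefSeq gene start, 5′ to 3′ on the gene's strand (GRCm38.p6, plus strand for all 3), and capitals mark a match, on either strand, to CTTTG followed by 2 bases that are each A or T.
Robo1, chr16:72662899-72663148: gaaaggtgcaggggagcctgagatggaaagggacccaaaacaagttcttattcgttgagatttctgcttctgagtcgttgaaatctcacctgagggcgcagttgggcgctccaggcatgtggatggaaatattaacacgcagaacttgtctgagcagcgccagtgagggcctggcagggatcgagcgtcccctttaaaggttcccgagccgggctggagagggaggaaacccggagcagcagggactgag
Robo4, chr9:37401722-37401971: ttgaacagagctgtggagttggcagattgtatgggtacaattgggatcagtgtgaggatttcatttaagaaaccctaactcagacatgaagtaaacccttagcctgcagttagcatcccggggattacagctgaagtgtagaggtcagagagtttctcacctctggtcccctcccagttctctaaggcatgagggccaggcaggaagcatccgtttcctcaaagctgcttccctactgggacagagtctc
Epha2, chr4:141300971-141301220: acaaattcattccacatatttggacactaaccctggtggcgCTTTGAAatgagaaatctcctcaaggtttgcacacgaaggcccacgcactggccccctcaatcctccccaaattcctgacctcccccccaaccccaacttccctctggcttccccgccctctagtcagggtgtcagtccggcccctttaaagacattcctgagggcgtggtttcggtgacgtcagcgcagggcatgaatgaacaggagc

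The Epha2 match began 209 bases before the gene start, and the Robo1 and Robo4 windows held none. Of the 51 kept genes 46 had a window in the RefSeq table, and 4 of these 46 held a match (8.7%), namely Efna4, Epha2, Sema3d and Sema6d. Over all 27025 genes with a window the share was 16.8%. A match is a run of letters, not a shown binding site, and its absence says only that these letters were not in the window. The expression files use another build (mm9), and sequences were joined to them by gene symbol only.

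Among ephrin ligands and Eph receptors, Efna5, which encodes a membrane-anchored ephrin-A ligand, had the smallest p. It stood at 57.0, 56.7 and 39.1 CPM in Axin1 libraries 1, 2 and 3, against 27.5, 29.6 and 34.9 CPM in controls 1, 2 and 3. The groups did not overlap, though Axin1 library 3 lay close to control 3. The log2 fold change was 0.73 (SE 0.18, 95% confidence interval 0.31 to 1.15, 1.66-fold). The adjusted p was 0.106 in edgeR and 0.0182 in DESeq2, and in edgeR it was 0.0948 without Axin1 library 3 and 0.0554 without control 3. Over the 14 alternatives the adjusted p ranged from 6.55e-04 to 0.317.

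Efna1 averaged 446.5 ± 73.5 CPM in the Axin1 libraries and 484 ± 54.3 CPM in the controls (SD, n = 3 each). Its log2 fold change was -0.12 with a 95% confidence interval of -0.45 to 0.21. Its receptor gene Epha2 had 102, 82.4 and 76.5 CPM in the Axin1 libraries, against 86.3, 58.9 and 62.0 CPM in the controls, with overlapping groups (log2 0.33 and edgeR adjusted p 0.389, 95% confidence interval -0.08 to 0.74). The ratio of Efna1 to Epha2 in RPKM was 13.0, 14.98 and 13.7 in the Axin1 libraries and 16.0, 22.7 and 17.9 in the controls, a pair chosen after its values were seen and not tested. Epha4, a receptor gene for both ephrin classes, had 10.3, 13.0 and 15.7 CPM in the Axin1 libraries, against 14.6, 20.2 and 26.8 CPM in the controls. Its groups overlapped by Axin1 library 3 and control 1 (log2 -0.66, SE 0.26, edgeR adjusted p 0.25).

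The arterial and venous pair did not separate the groups. Efnb2 had 179, 159 and 183 CPM in Axin1 libraries 1, 2 and 3, against 159, 172 and 107 CPM in controls 1, 2 and 3. Control 3 was the low library. The log2 fold change was 0.25 with a 95% confidence interval of -0.15 to 0.65 and an edgeR adjusted p of 0.514. Ephb4 had 138, 111 and 81.3 CPM in the Axin1 libraries, against 108, 119 and 99.3 CPM in the controls, and its log2 fold change of 0.02 had a 95% confidence interval of -0.41 to 0.44. Axin1 libraries 1 and 3 were the highest and the lowest of all 6. The ratio of Efnb2 to Ephb4 in RPKM was 1.302, 1.43 and 2.27 in the Axin1 libraries and 1.47, 1.45 and 1.08 in the controls, so the groups overlapped. Of 13 other arterial markers 1 passed edgeR's test, the Notch ligand gene Jag1, which was lower (log2 -0.74, edgeR adjusted p 0.0452). Of all tested genes 0.845% passed. The arterial list had 6 log2 fold changes above 0 and 7 below, with a median of -0.17. The groups did not overlap for 5 of the 13 (38.5%), against 23.8% of all tested genes. Higher were Hey1 (log2 0.88, edgeR adjusted p 0.0793) and Nrp1 (log2 0.11, edgeR adjusted p 0.61). Lower were Jag1, Gja4 (log2 -0.98, edgeR adjusted p 0.111) and Notch4 (log2 -0.51, edgeR adjusted p 0.174). Of 6 tested venous markers 0 passed, with 5 above 0, 1 below and a list median of 0.17. The groups did not overlap for 2 of the 6 (33.3%). Flt4 was higher (log2 0.62, edgeR adjusted p 0.0867) and Aplnr lower (log2 -0.39, edgeR adjusted p 0.118). An unadjusted edgeR p under 0.05 was found for 4 arterial (30.8%) and 2 venous markers (33.3%), against 17.2% of all tested genes.

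Among the plexins, 7 of 9 had positive and 2 negative log2 fold changes, with a median of 0.29. Plxna2, a receptor gene for class 6 semaphorins and a partner of neuropilins, had 94.6, 87.9 and 79.9 CPM in Axin1 libraries 1, 2 and 3, against 54.3, 66.3 and 72.3 CPM in controls 1, 2 and 3. The groups did not overlap (log2 0.44, SE 0.14 and edgeR adjusted p 0.167, 95% confidence interval 0.12 to 0.76). Plxnd1, by contrast, averaged 750.4 ± 108 CPM in the Axin1 libraries and 746 ± 74.0 CPM in the controls (SD, n = 3 each). Its 95% confidence interval on the log2 scale was -0.29 to 0.31, which bounds a difference to 0.817-fold to 1.24-fold.

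Plxnb2, a receptor gene for class 4 semaphorins, had 62.8, 73.8 and 82.2 CPM in the Axin1 libraries, against 48.9, 59.4 and 66.3 CPM in the controls, with an overlap of 1 library (log2 0.33, edgeR adjusted p 0.335). The X-linked plexin genes Plxnb3 and Plxna3 separated the groups in opposite directions at low levels. Plxnb3 averaged 3.22 ± 0.652 CPM in the Axin1 libraries and 1.67 ± 0.0169 CPM in the controls, and Plxna3 averaged 2.44 ± 0.496 CPM in the Axin1 libraries and 4.16 ± 0.695 CPM in the controls (SD, n = 3 each). The edgeR adjusted p was 0.252 for Plxnb3 and 0.309 for Plxna3. The Y-linked gene Ddx3y stood at 43.8, 86.2 and 151 CPM in Axin1 libraries 1, 2 and 3, against 0, 119 and 40.6 CPM in controls 1, 2 and 3, and the part of embryo sex in these values was not tested.

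No tested semaphorin passed edgeR's test, and only Sema6d had a 95% confidence interval within 1.5-fold in both directions. Sema6d had 229.8, 190.1 and 165 CPM in Axin1 libraries 1, 2 and 3, against 174, 214 and 184 CPM in controls 1, 2 and 3 (log2 0.03, 95% confidence interval -0.30 to 0.36). Sema6a, a transmembrane ligand gene for class A plexins, had 141, 169.8 and 193 CPM in the Axin1 libraries, against 111, 129 and 204 CPM in the controls (log2 0.18, 95% confidence interval -0.37 to 0.73). Sema3g, a secreted class 3 semaphorin of arterial endothelium in mice, had 38.5, 24.7 and 32.1 CPM in the Axin1 libraries, against 32.4, 36.6 and 45.0 CPM in the controls (log2 -0.26, 95% confidence interval -0.71 to 0.20, edgeR adjusted p 0.558). Sema4c had 48.4, 35.9 and 33.9 CPM in the Axin1 libraries, against 33.7, 22.9 and 34.8 CPM in the controls (log2 0.37, 95% confidence interval -0.11 to 0.85). Sema6d, Sema6a, Sema3g and Sema4c all had overlapping groups. Sema3f, a secreted ligand that acts through Nrp2, was the sole semaphorin without overlap, at 4.71, 4.89 and 5.01 CPM in the Axin1 libraries, against 2.54, 4.06 and 2.85 CPM in the controls (log2 0.62, edgeR adjusted p 0.362).

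The class 4 semaphorins Sema4d, Sema4b and Sema4a, known from immune cells, moved with library 3 of the Axin1 group. Sema4c and Sema4g did not. Sema4d, the ligand gene for PlexinB1, had 11.7, 26.4 and 60.4 CPM in Axin1 libraries 1, 2 and 3, against 14.9, 22.9 and 18.0 CPM in controls 1, 2 and 3. Sema4b had 1.36, 3.58 and 10.6 CPM in the Axin1 libraries, against 3.85, 4.37 and 3.77 CPM in the controls. Sema4a had 0.24, 3.10 and 3.37 CPM in the Axin1 libraries, against 1.05, 0.84 and 1.47 CPM in the controls. In Sema4d, Sema4b and Sema4a, Axin1 library 1 was the lowest and Axin1 library 3 the highest of the 6. The 13 macrophage and microglia markers also had their lowest and highest sum there. The part of such cells in these values was not tested, and the 3 genes were singled out after their values were seen.

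Of the 10 tested Eph receptors 6 were highest in control 3, among them the low-level EphB genes. Epha1, Epha2 and Ephb4 were highest in Axin1 library 1 (5.03, 102 and 138 CPM, against 1.65, 62.0 and 99.3 CPM in control 3). Epha3 was highest in Axin1 library 3 (11.2 CPM, against 8.64 CPM in control 3). Ephb2, a receptor gene for ephrin-B ligands, had 0.80, 1.79 and 0.95 CPM in Axin1 libraries 1, 2 and 3, against 0.26, 0.46 and 3.95 CPM in controls 1, 2 and 3. Ephb3 had 1.12, 1.86 and 0.78 CPM in the Axin1 libraries, against 0.18, 0.77 and 2.67 CPM in the controls. Ephb1 had 0, 0.83 and 2.07 CPM in the Axin1 libraries, against 0, 1.00 and 4.14 CPM in the controls. Control 3 was the highest of the 6 libraries for all 3 and for the ephrin ligand gene Efnb1 (5.15 CPM, against 4.75 CPM in Axin1 library 3) and Sema5a (7.17 CPM). It was also highest for 9 of the 15 neural markers found. These included Tubb3 and the radial glia gene Pax6 (11.2 CPM, against 0.96 to 5.27 CPM elsewhere). They did not include Stmn2 (84.7 CPM in control 3, against 124 CPM in control 2) or Nes (214 CPM in control 3, against 235 CPM in Axin1 library 1). Nor did they include Dcx, Nefl and Sox1, highest in Axin1 library 3, or Elavl3, highest in Axin1 library 2. The guidance genes highest in control 3 were likewise picked after their values were seen, and the part of neural cells in them was not tested.

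**Figure D4:**
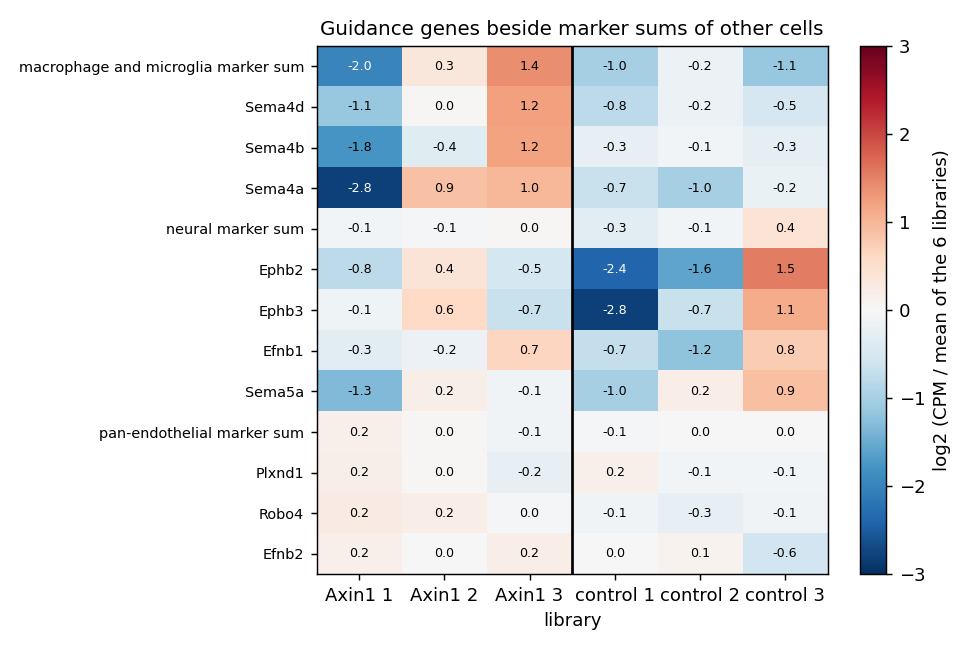
Log2 ratio of each library's CPM to the mean of the 6 libraries, for marker sums of macrophages, neural cells and endothelium and for 10 guidance genes, with Axin1 libraries left of the line and controls right of it. Sema4d, Sema4b and Sema4a are lowest in Axin1 library 1 and highest in Axin1 library 3, as the macrophage sum is, and Ephb2, Ephb3, Efnb1 and Sema5a are highest in control 3.

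Unc5b had 133, 157 and 140.1 CPM in Axin1 libraries 1, 2 and 3, against 108, 162 and 145 CPM in controls 1, 2 and 3, with overlapping groups. Its log2 fold change of 0.05 had a 95% confidence interval of -0.31 to 0.42. For 7 of the 48 tested genes the interval stayed within 1.5-fold in both directions, and these were Efna1, Robo4, Plxnd1, Sema6d, Ephb4, Unc5b and Plxnb1. For 29 of the 48 it reached beyond 2-fold in at least 1 direction, so a difference of that size was not bounded for them with 3 libraries per group.

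Of 44 further genes of these pathways, which encode co-receptors, adaptors and cytoskeletal transducers, 41 were tested. By edgeR's test 0 of the 41 passed in either direction, 11 (26.8%, against 17.2% of all tested genes) had an unadjusted p under 0.05, DESeq2 called 1, and the median log2 fold change was 0.15. The one DESeq2 called was Neo1, which encodes the receptor neogenin for netrins and RGM proteins. Neo1 had 30.2, 25.1 and 23.8 CPM in Axin1 libraries 1, 2 and 3, against 42.9, 56.1 and 42.0 CPM in controls 1, 2 and 3, without overlap (log2 -0.83, SE 0.17, edgeR adjusted p 0.0639). The next smallest p values were those of Mical2, an actin-oxidising enzyme gene (log2 1.05, edgeR adjusted p 0.156), and Chn1, a Rac GTPase-activating protein gene downstream of EphA4 (log2 0.59, edgeR adjusted p 0.182). The semaphorin co-receptor gene Nrp1 averaged 1136 ± 5.41 CPM in the Axin1 libraries and 1056 ± 62.4 CPM in the controls, and Nrp2 averaged 116 ± 10.9 CPM in the Axin1 libraries and 101 ± 11.1 CPM in the controls (SD, n = 3 each). The log2 fold change was 0.11 for Nrp1 (edgeR adjusted p 0.61) and 0.19 for Nrp2 (edgeR adjusted p 0.487).

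None of 15 pan-endothelial markers passed edgeR's test, with a median log2 fold change of 0.02. At an unadjusted p under 0.05 there were 2, Cdh5 higher and Esam lower, both without overlap. By edgeR's adjusted test 0 of the 15 thus passed. The same count was 0 of 12 tested neural markers (median -0.05), 0 of 13 pericyte and mesenchyme markers (0.58), 0 of 13 macrophage and microglia markers (1.13), 0 of 7 erythroid markers (-0.14) and 0 of 10 megakaryocyte and platelet markers (0.36). At an unadjusted p under 0.05 there was 1 among the megakaryocyte and platelet markers and 0 in the other 4 of these lists.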

How the data were processed

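Each library has its own deposited table, in which the authors give the read count and the RPKM/FPKM of every RefSeq gene entry (per the file headers). Bowtie and mm9 appear in the submitters' processing notes, while versions, the counter and its strand setting are unknown here. Reads from exons shared with an opposite-strand gene can therefore be counted in both; in GENCODE M21 such exons make up 10.7% of the exon bases of Plxna1, 7.27% of Sema4c and 0.711% of Ephb4. The authors' RPKM served, unchanged, for levels between genes only.

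Counts were tested as deposited with edgeR 4.0.16 (R 4.3.3, TMM, filterByExpr defaults with minimum count 10 and minimum total 15, robust quasi-likelihood fit, no covariates), with Benjamini-Hochberg adjustment over 12661 genes at 0.05. The standard error is the log2 fold change divided by the root of F. The common biological coefficient of variation was 25.3%, and the fit was tested on simulated counts. DESeq2 1.42.0 was an alternative, as were 2 other scalings, 2 other filters, a non-robust fit, leaving out each library and 2 replicate blocks.

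Members, lists and the naming rule were chosen with earlier results of these data known. Named were the 5 vessel markers, the 12 smallest p, the 10 highest mean RPKM and each family's most abundant kept gene, and in the co-receptor list Nrp1, Nrp2 and the 3 smallest p; others are said to be picked afterwards or complete a family's account. Promoter windows are RefSeq's (GRCm38.p6).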

Additional observations from a re-analysis of the deposited data

How the results depend on the processing

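The count of guidance genes past the threshold was 0 with edgeR and stayed 0 under both other scalings, with 10 reads in 3 libraries as the filter, without the robust fit and with the description's replicate number as a block. It was 1 without a low-count filter (Robo1), 2 with DESeq2 (Robo1 and Efna5), and 0 to 1 when 1 library was left out, the 1 being Robo1 without control 3. Over all genes the 107 calls became 197 without a low-count filter, 51 without the robust fit, 720 with DESeq2 and 0 to 695 with 1 library left out (695 without control 3; 0 by edgeR without control 2 or Axin1 library 2, where 1539 and 1733 genes had an unadjusted p below 0.05). The 44 co-receptor and transducer genes gave 1 call without a low-count filter and 1 with DESeq2, and 0 to 1 with 1 library left out, always Neo1. The causes were not tested.

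The libraries share replicate numbers 1 to 3 in their descriptions, and 2 title numbers occur in both groups. Deviations from the group means correlated at 0.234, 0.152 and -0.0229 for replicates 1, 2 and 3, and library 3 of neither group correlated best with its own number, so the description numbers were not taken as a pairing. The title numbers are shared by libraries 1 and 2 only, which correlated at 0.234 and 0.152 with their own number and at -0.215 and -0.249 crossed. Control 2 correlated at 0.175 with Axin1 library 3, with which it shares no title number, and so above its 0.152 with Axin1 library 2. The labels do not say what a title number marks, and with 2 pairs it was left as a shared number. The description block gave 0 guidance genes and 105 of all genes. Blocking on the title number, in the 4 libraries that share one, gave 6 of 47 tested guidance genes and 1500 of all 12628 tested genes. The share of guidance genes thus lay near that of all genes. The 6 were Efna5, Plxna1, Plxna2, Robo1, Robo4 and Sema4c, all higher (edgeR adjusted p 0.0191 for Robo4 and 0.0131 for Plxna2). Of 40 tested co-receptor and transducer genes 8 passed. That fit leaves out library 3 of each group.

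Of 20 named and tested guidance genes, 15 kept their direction in all 14 alternatives. Ephb4 had a log2 fold change of -0.012 with the description block and -0.18 to 0.19 with 1 library left out, and Plxnd1 one of -9.3e-06 with RLE scaling and -0.093 to 0.11 with 1 library left out. Left-out libraries also turned Efna1 (-0.22 to 0.0095), Sema6d (-0.10 to 0.14) and Unc5b (-0.10 to 0.19). Read depth limits the 17 genes under the read minimum and the 3 kept genes that could not be tested.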
